A study of Homo sapiens with 5 samples.

Results

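The axon guidance ligands and receptors measured in HEK293A cells are described here after depletion of IRE1α with an siRNA (siIRE1a), set against a control siRNA (siCon). HEK293A cells come from the human kidney line HEK293 and grow flat on the dish, and IRE1α, encoded by ERN1, is a stress sensor in the membrane of the endoplasmic reticulum. Cells of both groups grew in DMEM with 10% fetal bovine serum and were starved before serum was returned to them. Ribosome footprints, the mRNA fragments covered by ribosomes and sequenced by Ribo-seq, and RNA were measured in both groups. The siRNA sequences and the length of the starvation are not given in the sources used here, and no unstarved group was analysed here. Whether the 2 replicates of each group were separate cultures is not given either.

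The genes were chosen by name among the 10504 genes of the deposited abundance table: semaphorins of classes 3 to 7, plexins, neuropilins, Eph receptors, ephrins, Robo receptors, Slits, netrins, UNC5 receptors, DCC and NEO1, with 1 Eph receptor left out by the choice. The set was put forward with earlier results of these same data known, so its changes are a description and not independent evidence. It held 43 genes, of which 20 encode ligands and 23 encode receptors. In the GENCODE annotation 69 protein-coding genes carry such names, that receptor not counted. The measured ones were 12 of 20 semaphorins, 4 of 8 ephrins, 3 of 3 Slits, 1 of 4 netrins, 6 of 9 plexins, 2 of 2 neuropilins, 9 of the 13 Eph receptors counted in this way, 3 of 4 Robo receptors and 3 of 6 netrin receptors, the others not being analysed here.

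Axon guidance cues are secreted or membrane-bound proteins that steer growing axons toward or away from a target. Semaphorins signal through plexins, with neuropilins as coreceptors for most of the secreted class 3. Slits bind Robo receptors, netrins bind DCC, neogenin and UNC5 receptors, and ephrins bind Eph receptor tyrosine kinases on a neighbouring cell, where they can also signal backward into the cell that carries them. Outside the nervous system the same proteins act in cell sorting, blood vessel growth and epithelial adhesion, and nearly all of them are made on ribosomes at the endoplasmic reticulum, the organelle that IRE1α monitors.

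The deposited tables hold 1 footprint value and 1 RNA value per gene and group, so no spread between replicates can stand beside a level or its change. Changes in RNA and footprints are log2 ratios of siIRE1a over siCon with no test. The unit of the abundances is not stated, and across genes they fell with coding length (Spearman correlation of −0.51 for footprints), as values divided by length do. Translational efficiency (TE) is footprint abundance divided by RNA abundance within a group, and its log2 change and adjusted p come from the authors' deposited table. The siIRE1a libraries had 49112701 and 34172898 clusters passing the sequencer's filter and the siCon libraries 28769136 and 31876615, but how many reads stand behind an abundance is unknown. The sample descriptions name RNA-seq for the siCon libraries and Ribo-seq for the siIRE1a libraries, so these cluster counts may not be of the same assay. A further sample is a Ribo-seq library that pools both groups, and no cluster count is tied to it. ERN1 itself had RNA at 0.0736 in siIRE1a cells and 0.121 in siCon cells, a change of −0.72, and footprints at 0.275 in siIRE1a cells and 0.402 in siCon cells. Of 10 genes listed as typical of HEK293 cells 6 were measured, with footprints higher in siIRE1a cells for 2 (CDH2 and KRT8) and lower for 4. Among the lower ones was VIM (vimentin), with footprints at 69.5 in siIRE1a cells and 83.8 in siCon cells. Of 7 neuronal markers 4 were measured, and their summed footprints, mostly from TUBB3, were 13.6 in siIRE1a cells and 17.3 in siCon cells. Footprints of SYT1 and SYP were higher in siIRE1a cells, and those of TUBB3 and GAP43 lower. Of the blood cell and hepatocyte markers 0 were among the measured genes, and of 5 fibroblast markers COL1A1 was.

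Most guidance genes were expressed at a low level. The median footprint abundance of the 43 genes was 0.572 in siIRE1a cells and 0.510 in siCon cells, against 1.74 and 1.84 over all genes in the same groups. The median RNA abundance was 0.177 in siIRE1a cells and 0.138 in siCon cells, against 0.396 and 0.412 over all genes. A mean footprint abundance of at least 1 was reached by 11 of the genes, and a mean RNA abundance of at least 1 by SLIT2, ROBO1 and PLXNB2. SLIT2, a secreted repellent that binds Robo receptors, was the most abundant in both assays, above 91.9% of all genes by footprints in siCon cells.

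**Figure D1:**
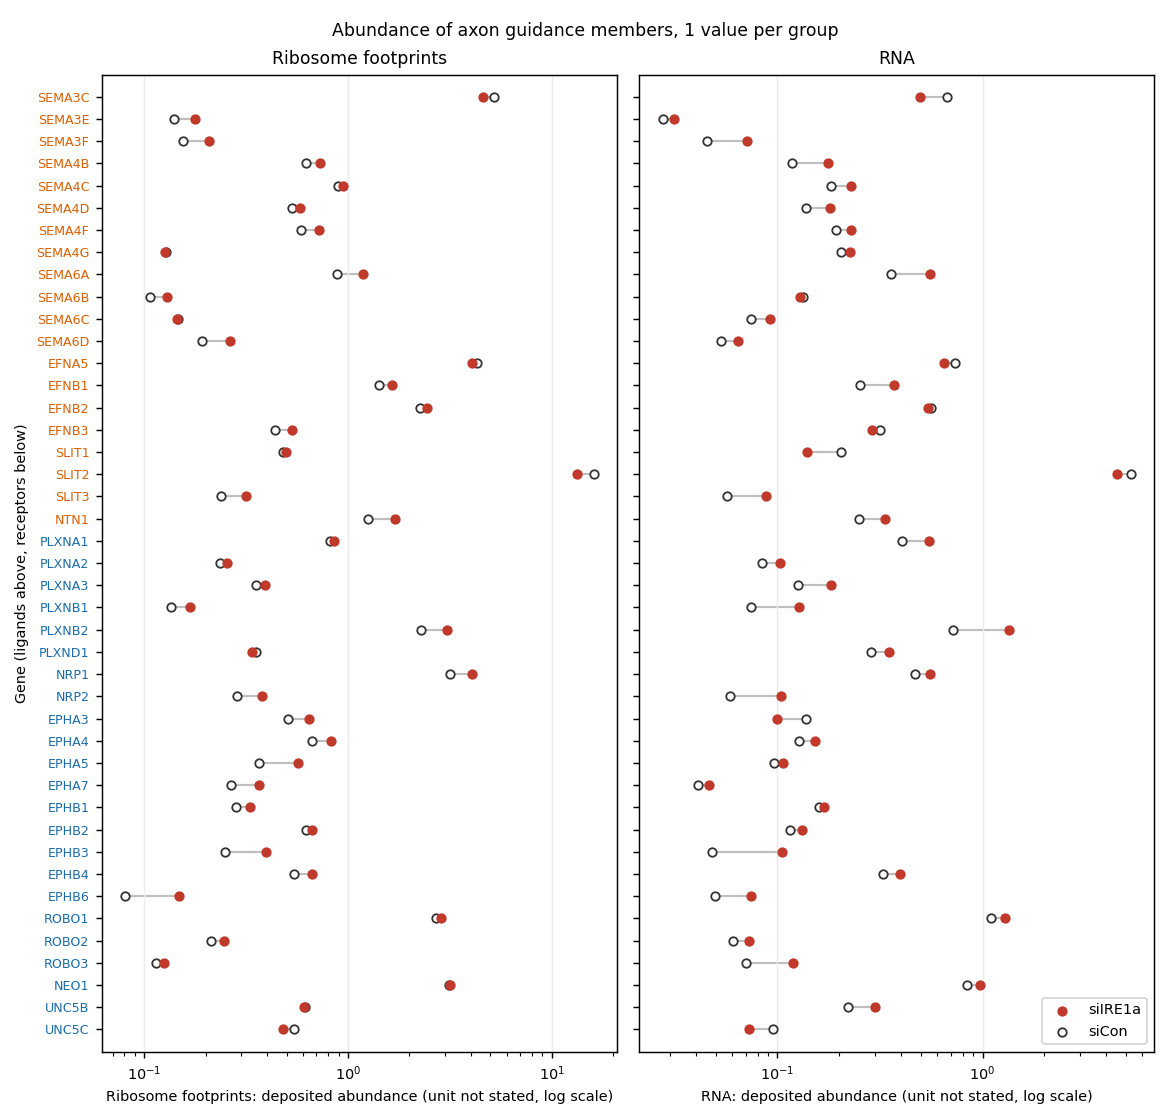
Deposited abundance of ribosome footprints (left) and RNA (right) of the 43 genes, each on a log axis in the authors' unstated unit, with siIRE1a as filled and siCon as open circles and 1 value per group. The siIRE1a circle lies to the right of the siCon circle for 35 genes in footprints and for 34 genes in RNA.

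Both assays gave higher values in siIRE1a cells for most of these genes. RNA was higher in siIRE1a cells for 34 of the 43 (79.1%, against 48.8% of all genes), and the median log2 change was 0.27, against −0.01 over all genes. Footprints were higher in siIRE1a cells for 35 (81.4%, against 32.1% of all genes), with a median of 0.22, against −0.08 over all genes. In 30 genes both were higher, and in SLIT2, EFNA5, SEMA3C and UNC5C both were lower. In these bulk samples a change in the number of expressing cells and a change in RNA per cell cannot be told apart.

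Changes were modest in size. RNA was at least 1.2-fold higher in siIRE1a cells for 22 genes (51.2%, against 20.7% of all genes) and at least 1.2-fold lower for 4 (against 26.0%), which were SLIT1, SEMA3C, EPHA3 and UNC5C. Footprints were at least 1.2-fold higher for 20 genes (46.5%, against 6.32% of all genes) and at least 1.2-fold lower for SLIT2 only (against 14.0%). The largest footprint change was 1.83-fold, in EPHB6, and the largest RNA change 2.20-fold, in EPHB3. Both of these genes had low values, listed with the Eph receptors below.

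Few TE changes passed the test. In the authors' deposited table the median log2 TE change was −0.09, against −0.04 over all genes, and 19 genes were above 0 and 24 below. An adjusted p was given for 33 genes and was absent for 10. At an adjusted p under 0.05 in the authors' deposited table, TE was called higher for EPHA3 and SLIT1 (6.06% of 33, against 5.90% of all 8878 genes with an adjusted p), a share near that of all genes. No guidance gene was called lower in the authors' deposited table, which is named after DESeq2 (against 4.62%). At a back-calculated, unadjusted p under 0.05, 3 guidance genes were higher (EPHA3, SLIT1 and EPHA5) and 3 lower (PLXNB2, UNC5B and PLXNA1). These are 9.09% of 33 in each direction, against 12.7% higher and 13.1% lower over all genes.

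**Figure D2:**
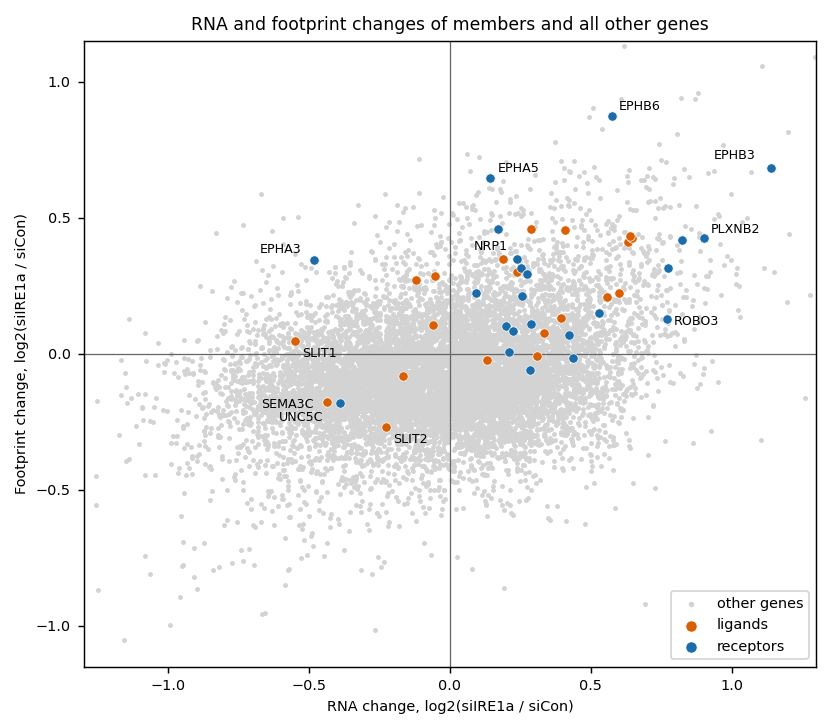
Footprint change against RNA change, both as log2 of siIRE1a over siCon, for ligands (orange), receptors (blue) and all other genes (grey, 31 of which lie outside the axes). Most coloured points lie at the upper right, with 30 genes above 0 on both axes, while EPHA3 and SLIT1 lie to the left with footprints above 0.

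Ligands and receptors had like medians in RNA and footprints as deposited, but not in TE. The median RNA change was 0.26 over 20 ligands and 0.27 over 23 receptors, and the median footprint change was 0.22 over either. In the authors' deposited table the median TE change was 0.015 over ligands and −0.12 over receptors. With a trend on transcript GC content removed, as described below, the median RNA change was 0.085 over ligands and 0.31 over receptors. The median footprint change was then 0.29 over either, and the median TE change 0.020 over ligands and −0.026 over receptors. RNA was higher in siIRE1a cells for 13 of 20 ligands and for 21 of 23 receptors, and footprints for 15 of 20 ligands and 20 of 23 receptors. Among the 8 ligands other than semaphorins the median RNA change was −0.09, with 3 genes above 0, while the median footprint change was 0.16, with 6 above 0.

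Semaphorins also lay close to the other guidance genes in RNA and footprints. Their median RNA change was 0.30, against 0.26 over the other 31 genes, and their median footprint change 0.25, against 0.21. In the authors' deposited table their median TE change was −0.18, against −0.03 over the others. The RNA and footprint differences between these medians were both 0.04 and turned in sign under other scalings or pseudocounts. The TE difference was −0.15, and −0.14 with log2 ratios of the deposited TE columns. With a trend on GC content removed, the median TE change was 0.0067 over semaphorins and −0.025 over the others.

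Of the secreted class 3 semaphorins, SEMA3C was the most abundant and went the other way from the rest. Its footprints were at 4.61 in siIRE1a cells and 5.21 in siCon cells, and its RNA at 0.496 in siIRE1a cells and 0.672 in siCon cells (1.35-fold lower). SEMA3C guides cortical axons and cardiac neural crest cells. SEMA3F, a ligand of neuropilin-2, had footprints at 0.207 in siIRE1a cells and 0.154 in siCon cells and RNA at 0.0712 in siIRE1a cells and 0.0455 in siCon cells. SEMA3E, which binds PLXND1 directly, had footprints at 0.178 in siIRE1a cells and 0.140 in siCon cells, with RNA at 0.0313 in siIRE1a cells and 0.0275 in siCon cells.

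The transmembrane class 4 semaphorins had higher RNA in siIRE1a cells in all 5 measured genes, between log2 0.13 and 0.60. Their footprint changes lay between −0.02 and 0.30 and were smaller than the RNA change in 4 of 5, SEMA4F being the exception. With a trend on GC content removed, the median RNA change of these 5 genes was 0.092, against 0.33 before. Only SEMA4G (−0.088) was then below 0. SEMA4B had RNA at 0.177 in siIRE1a cells and 0.117 in siCon cells, and footprints at 0.731 in siIRE1a cells and 0.626 in siCon cells. SEMA4C, a ligand of PLXNB2, had footprints at 0.945 in siIRE1a cells and 0.898 in siCon cells, with RNA at 0.230 in siIRE1a cells and 0.182 in siCon cells. SEMA4D, the ligand of PLXNB1 also known as CD100 on lymphocytes, had footprints at 0.581 in siIRE1a cells and 0.530 in siCon cells. SEMA4F footprints were at 0.721 in siIRE1a cells and 0.586 in siCon cells, the only class 4 value at least 1.2-fold higher. SEMA4G shares 738 exonic bases with MRPL43, so reads of this pair may not be separable, and its footprint change was −0.02.

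The class 6 semaphorins, transmembrane ligands of A-type plexins, included the largest semaphorin footprint change, that of SEMA6D. SEMA6A had footprints at 1.19 in siIRE1a cells and 0.882 in siCon cells and RNA at 0.555 in siIRE1a cells and 0.356 in siCon cells, and was 1.35-fold higher in footprints and 1.56-fold higher in RNA. SEMA6D had footprints at 0.263 in siIRE1a cells and 0.192 in siCon cells, a change of 0.46, with an RNA change of 0.29. SEMA6B had a footprint change of 0.28 beside an RNA change of −0.05, and SEMA6C an RNA change of 0.31 beside a footprint change of −0.01. No semaphorin was called for TE in the authors' deposited table (against 5.90% higher and 4.62% lower over all genes). There 7 of 12 had an adjusted p, the smallest being 0.229 for SEMA3C. Of these 7, 0 had a back-calculated, unadjusted p under 0.05 (against 12.7% higher and 13.1% lower over all genes).

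The ephrins, ligands that stay on the cell surface, were above the median abundance of the set in 3 of 4 genes. EFNA5, which is anchored by a lipid, had footprints at 4.08 in siIRE1a cells and 4.31 in siCon cells. EFNB1 and EFNB2 cross the membrane and carry a cytoplasmic tail. EFNB1 had footprints at 1.64 in siIRE1a cells and 1.42 in siCon cells, with RNA at 0.371 in siIRE1a cells and 0.252 in siCon cells, the only ephrin with higher RNA in siIRE1a cells. EFNB2 had footprints at 2.44 in siIRE1a cells and 2.27 in siCon cells, and RNA at 0.541 in siIRE1a cells and 0.564 in siCon cells. EFNB3 was below that median, with footprints at 0.529 in siIRE1a cells and 0.439 in siCon cells. It was similar to EFNB2 in sign, with a footprint change of 0.27, an RNA change of −0.12 and a TE change of 0.39 in the authors' deposited table (adjusted p = 0.416).

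The 3 Slits, secreted repellents that signal through Robo receptors, split in direction. SLIT2 had footprints at 13.3 in siIRE1a cells and 16.1 in siCon cells and RNA at 4.52 in siIRE1a cells and 5.29 in siCon cells, so both were lower in siIRE1a cells. SLIT3 was higher in both assays, with footprints at 0.315 in siIRE1a cells and 0.237 in siCon cells and RNA at 0.0882 in siIRE1a cells and 0.0569 in siCon cells. SLIT1 had RNA at 0.139 in siIRE1a cells and 0.204 in siCon cells, which was 1.46-fold lower, while its footprints were at 0.494 in siIRE1a cells and 0.478 in siCon cells. NTN1 (netrin-1), the one measured netrin and a cue for commissural axons, had footprints at 1.71 in siIRE1a cells and 1.25 in siCon cells and RNA at 0.333 in siIRE1a cells and 0.251 in siCon cells. Both NTN1 changes were above 1.3-fold, and its change in TE was 0.06 (adjusted p = 0.869 in the authors' deposited table).

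**Figure D3:**
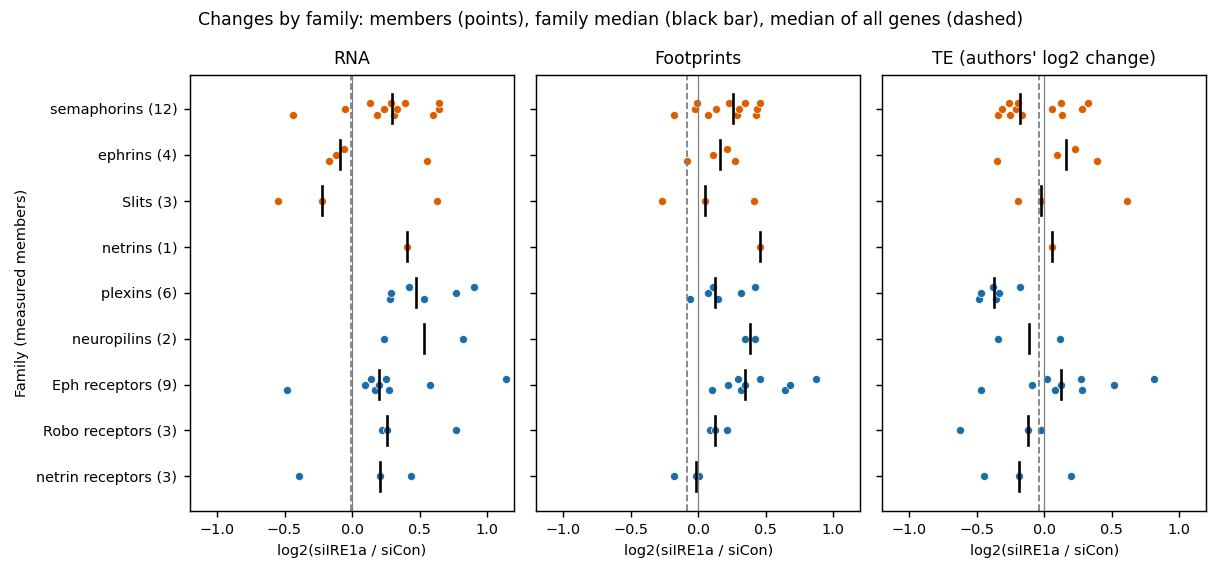
Changes in RNA, footprints and TE by family, as log2 of siIRE1a over siCon, with ligands in orange, receptors in blue, a black bar at the family median and a dashed line at the median of all genes; TE changes are those of the authors' deposited table. All 6 plexins lie above 0 in RNA and below 0 in TE, and all 9 Eph receptors lie above 0 in footprints.

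Plexins, the receptors of semaphorins, had higher RNA in siIRE1a cells throughout. It was at least 1.2-fold higher in siIRE1a cells for all 6 (against 20.7% of all genes), with a median of 0.48. The median footprint change was 0.13, and only PLXNB1 and PLXNB2 passed 1.2-fold in footprints (33.3%, against 6.32% of all genes). PLXNB2, a receptor of class 4 semaphorins, had RNA at 1.34 in siIRE1a cells and 0.718 in siCon cells (1.87-fold higher) and footprints at 3.07 in siIRE1a cells and 2.29 in siCon cells (1.34-fold higher). PLXNB1, the receptor of SEMA4D, had RNA at 0.127 in siIRE1a cells and 0.0741 in siCon cells and footprints at 0.168 in siIRE1a cells and 0.135 in siCon cells. The B-type plexins thus had the higher changes of this family, with a median RNA change of 0.84 over these genes, against 0.42 over the 3 A-type plexins.

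The A-type plexins, which pair with neuropilins, changed less in footprints. PLXNA1 had RNA at 0.545 in siIRE1a cells and 0.407 in siCon cells, with footprints at 0.858 in siIRE1a cells and 0.818 in siCon cells. PLXNA3 had RNA at 0.182 in siIRE1a cells and 0.126 in siCon cells and PLXNA2 a smaller RNA change of 0.29. The exons of PLXNA3 share 11 bases with LAGE3. PLXND1, the receptor of SEMA3E, had RNA at 0.349 in siIRE1a cells and 0.287 in siCon cells, and was the only plexin with lower footprints, at 0.339 in siIRE1a cells and 0.353 in siCon cells.

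All 6 plexins had a TE change below 0 in the authors' deposited table, with a median of −0.37, and none was called (2 of 6 at an unadjusted p under 0.05, against 13.1% of all genes in that direction). The largest was that of PLXNB2, at −0.48 with an adjusted p of 0.0521 in the authors' deposited table. Their median transcript GC content was 62.0%. Among other genes above 60% the median TE change was −0.31, with 2 of 1111 called higher and 101 lower in the authors' deposited table. The median RNA change of those other genes was 0.22, and RNA was higher in siIRE1a cells for 81.7% of them. With a trend on GC content removed, the median RNA change of the plexins was 0.25, against 0.48 before. What part GC content has in the plexin changes was not tested.

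Both neuropilins, coreceptors for class 3 semaphorins and for vascular endothelial growth factor, were higher in both assays. NRP1 was the most abundant receptor by footprints, at 4.05 in siIRE1a cells and 3.18 in siCon cells, and its RNA was at 0.554 in siIRE1a cells and 0.470 in siCon cells. NRP2 had a larger RNA change, with 0.104 in siIRE1a cells and 0.0586 in siCon cells (1.77-fold higher), and footprints at 0.380 in siIRE1a cells and 0.284 in siCon cells.

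Eph receptors, the largest family of receptor tyrosine kinases, had higher footprints in siIRE1a cells in all 9 measured genes, with a median of 0.34. Of these, 7 passed 1.2-fold (77.8%, against 6.32% of all genes). RNA was higher in 8 of 9, with a median of 0.20. The 4 A-type receptors, which bind mainly ephrin-A ligands, were all at least 1.2-fold higher in footprints, although none was at least 1.2-fold higher in RNA. EPHA5 had footprints at 0.572 in siIRE1a cells and 0.365 in siCon cells (1.56-fold higher), with RNA at 0.107 in siIRE1a cells and 0.0967 in siCon cells. EPHA4, which also binds ephrin-B ligands, had footprints at 0.824 in siIRE1a cells and 0.663 in siCon cells, and EPHA7 0.367 in siIRE1a cells and 0.267 in siCon cells. EPHA3 had footprints at 0.647 in siIRE1a cells and 0.510 in siCon cells, while its RNA was at 0.0990 in siIRE1a cells and 0.138 in siCon cells, which was 1.40-fold lower.

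The 5 B-type Eph receptors had higher RNA and higher footprints in siIRE1a cells throughout. With a trend on GC content removed, their median RNA change was 0.032, against 0.27 before. Only EPHB1 (−0.029) and EPHB2 (−0.025) were then below 0 in RNA. Their median footprint change was then 0.37, against 0.29 before. EPHB3 had the largest RNA change of the set, at 0.106 in siIRE1a cells and 0.0479 in siCon cells, and footprints at 0.398 in siIRE1a cells and 0.248 in siCon cells. EPHB6, whose kinase domain is inactive, had footprints at 0.148 in siIRE1a cells and 0.0808 in siCon cells and RNA at 0.0742 in siIRE1a cells and 0.0498 in siCon cells. Both genes are at the low end of the measured range, and the authors' deposited table gives neither an adjusted p. EPHB4, the receptor of EFNB2 on venous endothelium, had footprints at 0.668 in siIRE1a cells and 0.546 in siCon cells and RNA at 0.394 in siIRE1a cells and 0.326 in siCon cells. EPHB2 and EPHB1 had footprint changes of 0.10 and 0.22.

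The Robo receptors of Slits were higher in both assays in all 3 measured genes. ROBO1 was the most abundant, with footprints at 2.86 in siIRE1a cells and 2.70 in siCon cells and RNA at 1.29 in siIRE1a cells and 1.10 in siCon cells. ROBO3, which controls midline crossing of commissural axons, had the largest RNA change of the family, at 0.120 in siIRE1a cells and 0.0701 in siCon cells, with footprints at 0.124 in siIRE1a cells and 0.114 in siCon cells. ROBO2 had a footprint change of 0.21 and an RNA change of 0.26.

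Netrin receptors were the only receptor family whose footprints did not lie mostly above 0. NEO1 (neogenin), which also binds repulsive guidance molecules, had footprints at 3.16 in siIRE1a cells and 3.15 in siCon cells, with RNA at 0.974 in siIRE1a cells and 0.843 in siCon cells. UNC5B, a receptor for repulsion by netrin, had footprints at 0.607 in siIRE1a cells and 0.614 in siCon cells, while its RNA was at 0.300 in siIRE1a cells and 0.222 in siCon cells. UNC5C was lower in both assays, with footprints at 0.482 in siIRE1a cells and 0.546 in siCon cells and RNA at 0.0727 in siIRE1a cells and 0.0952 in siCon cells. The TE changes of NEO1 (−0.19), UNC5B (−0.45) and UNC5C (0.20) did not pass the test (adjusted p of 0.452, 0.143 and 0.675 in the authors' deposited table).

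The TE calls of EPHA3 and SLIT1 both came with lower RNA and unreduced footprints in siIRE1a cells. TE of EPHA3 was 6.53 in siIRE1a cells and 3.68 in siCon cells, and the authors' deposited table gives a log2 change of 0.81 (adjusted p = 0.0214). TE of SLIT1 was 3.54 in siIRE1a cells and 2.34 in siCon cells, with a log2 change of 0.61 in the authors' deposited table (adjusted p = 0.0291). Standard errors back-calculated from the deposited p under a two-sided normal approximation were 0.252 for EPHA3 and 0.199 for SLIT1, which gives 95% intervals of 0.32 to 1.31 and 0.22 to 1.00. The next largest change above 0 was that of EPHA5 at 0.51 (adjusted p = 0.156 in the authors' deposited table). Just outside the threshold in the other direction lay PLXNB2.

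TE change varied with base composition across all genes, and the guidance genes shared that relation. The Spearman correlation between transcript GC content and TE change was −0.51 over the 43 genes, and −0.67 over the 10443 genes with an annotated transcript. RNA change had a Spearman correlation with GC content of 0.53 over the 43 genes and 0.63 over all, and footprint change had −0.0038 over the 43 genes and −0.043 over all. These correlations describe genes that share the same libraries and carry no test. The median transcript GC content was 55.1% over the guidance genes and 47.95% over all genes.

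EPHA3 and SLIT1 stood at different places in that relation. EPHA3 has a GC content of 40.6%, and between 40% and 45% the authors' deposited table called 154 of 2046 other genes higher and 3 lower. SLIT1 has a GC content of 59.4%, and between 55% and 60% the authors' deposited table called 4 of 1281 other genes higher and 160 lower, with a median TE change of −0.29 there. After a trend of TE change on GC content was removed, SLIT1 was at 0.91 (adjusted p = 0.00165, Benjamini-Hochberg over 8828 genes, recomputed here from the authors' deposited table). EPHA3 was at 0.58 and no longer passed (adjusted p = 0.353, recomputed in the same way from the authors' deposited table). With the trend removed 78 genes were called higher and 41 lower over all genes. The median TE change of the guidance genes then became −0.0068, against −0.0066 over all genes. That of the plexins became −0.074, against −0.37 before.

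**Figure D4:**
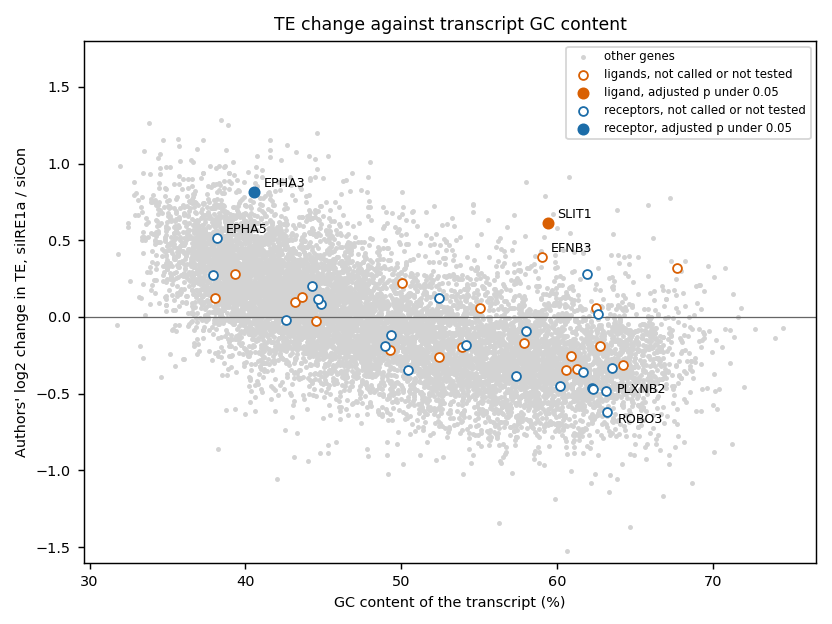
The log2 TE change of the authors' deposited table, siIRE1a over siCon, against the GC content of the transcript in percent, for ligands (orange), receptors (blue) and all other genes (grey), with filled symbols at an adjusted p under 0.05. SLIT1 at 59.4% lies above most genes of like GC content, EPHA3 at 40.6% lies among genes that are mostly above 0, and PLXNB2 lies among GC-rich genes that are mostly below 0.

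Footprint change hardly varied with GC content in these genes. With the GC trend removed their median footprint change was 0.29 and their median RNA change 0.18, against −0.016 and −0.0016 over all genes. Removing a trend also centres the changes of all genes near 0, where their median footprint change was −0.08 before. The step from 0.22 to 0.29 is therefore not to be read as an effect of GC content. Their coding sequences were long, with a median of 2958 bases against 1461 over all genes. With a trend on coding length removed their median footprint change was 0.28, against −0.017 over all genes. Mean footprint abundance and footprint change had a Spearman correlation of −0.31 over the 43 genes and −0.20 over all genes. Split by mean footprint abundance, the median footprint change of guidance genes tended to fall, though not at every step. It was 0.28 over 11 genes up to 0.25, 0.34 over 10 genes between 0.25 and 0.5, and 0.13 over 11 genes between 0.5 and 1. It was 0.43 over 3 genes between 1 and 2 and 0.08 over 7 genes between 2 and 5, and SLIT2, the one gene above 5, was at −0.27. The medians of other genes in the same ranges were 0.0062, −0.01, −0.05, −0.08, −0.09 and −0.13. What part abundance has in the size of these changes was not tested.

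Promoter sequences were examined because most of these genes had changes of the same sign. RefSeq windows of 250 bases before the start of transcription (GRCh38.p14) matched 37 of the 43 genes and 8242 measured genes. Each motif was searched on both strands. The GC box bound by Sp1 (GGGCGG) was in 28 guidance promoters (75.7%, against 69.8% of all), and CCAAT in 14 (37.8%, against 35.7%). Letters linked to the unfolded protein response were not found in the 37 windows: GACGTG, the core recognised by XBP1 and ATF6, was in 0 (against 9.32% of all), and the ER stress element, CCAAT and CCACG separated by 9 bases, in 0 (against 0.170%). The E-box CACGTG was in those of SEMA3E, SEMA4D and SEMA6D (8.11%, against 9.18% of all). A match of letters is a description, not a site of binding, and the ER stress element contains CCAAT.

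The 4 windows below belong to the genes with the lowest adjusted p for TE in either direction and to the gene with the largest RNA change. They are read 5′ to 3′ on the strand of the gene, with each GC box in capitals (GGGCGG, or CCGCCC where it lies on the other strand). They are at chr3:89107371-89107620 (EPHA3, plus strand), chr10:97185960-97186209 (SLIT1, minus strand), chr22:50301670-50301919 (PLXNB2, minus strand) and chr3:184561535-184561784 (EPHB3, plus strand) of GRCh38.p14.
EPHA3: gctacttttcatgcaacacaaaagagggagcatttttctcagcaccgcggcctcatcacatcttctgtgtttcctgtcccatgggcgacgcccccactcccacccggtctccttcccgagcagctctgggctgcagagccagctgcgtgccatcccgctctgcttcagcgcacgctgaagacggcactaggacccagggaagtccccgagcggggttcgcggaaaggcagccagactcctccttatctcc
SLIT1: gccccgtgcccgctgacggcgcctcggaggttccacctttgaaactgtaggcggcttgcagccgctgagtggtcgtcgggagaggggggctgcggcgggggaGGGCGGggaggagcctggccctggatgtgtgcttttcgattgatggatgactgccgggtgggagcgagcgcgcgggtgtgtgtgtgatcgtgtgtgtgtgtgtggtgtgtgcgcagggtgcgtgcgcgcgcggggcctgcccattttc
PLXNB2: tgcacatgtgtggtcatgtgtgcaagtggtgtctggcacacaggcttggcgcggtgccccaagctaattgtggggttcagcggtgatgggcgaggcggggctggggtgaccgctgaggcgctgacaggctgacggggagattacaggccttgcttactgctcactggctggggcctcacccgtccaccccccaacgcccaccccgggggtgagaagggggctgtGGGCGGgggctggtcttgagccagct
EPHB3: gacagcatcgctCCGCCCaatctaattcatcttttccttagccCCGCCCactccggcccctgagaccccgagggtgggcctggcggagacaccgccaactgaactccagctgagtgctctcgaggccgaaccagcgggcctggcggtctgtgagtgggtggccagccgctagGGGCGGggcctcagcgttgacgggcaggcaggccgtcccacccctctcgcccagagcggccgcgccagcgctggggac
EPHB3 has 3 GC boxes, SLIT1 and PLXNB2 have 1 each and EPHA3 has 0. The windows hold 15 CpG dinucleotides in EPHA3, 25 in SLIT1, 12 in PLXNB2 and 21 in EPHB3, with a median of 19 over the guidance promoters and 22 over all. The CCAAT of EPHB3 begins inside the first of its GC boxes. Whether the number of GC boxes goes with RNA change was not tested.

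Other surface proteins of the guidance pathways had changes of the same kind. Of 24 further ligands and coreceptors listed, 14 were measured, and their median RNA change was 0.28 and their median footprint change 0.19. RNA was higher in siIRE1a cells for 11 of 14, and footprints for 11 of 14. None was called for TE in the authors' deposited table, where 12 had an adjusted p, and at a back-calculated, unadjusted p under 0.05 there was 1 in each direction (8.33% of 12, against 12.7% and 13.1% of all genes). Closest was PTK7, a Wnt coreceptor, at −0.44 (adjusted p = 0.0629 in the authors' deposited table), with RNA at 0.764 in siIRE1a cells and 0.457 in siCon cells.

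The intracellular effectors that guidance receptors act through gave RNA and footprint medians near those of all genes. Of 59 listed, 50 were measured, among them kinases, adaptors and actin regulators. RNA was higher in siIRE1a cells for 25 and lower for 25. Footprints were higher for 10 and lower for 40, with a median of −0.10, close to −0.08 over all genes. At least 1.2-fold lower footprints were found for 9 effectors (18.0%, against 14.0% of all genes) and at least 1.2-fold higher ones for 0 (against 6.32%). The median TE change of the effectors was −0.11 in the authors' deposited table, against −0.04 over all genes, with 19 above 0 and 31 below. With the GC trend removed it was 0.00095, against −0.0066 over all genes.

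TE of 4 effectors passed the test in the authors' deposited table, 3 higher (6.82% of 44, against 5.90% of all genes) and 1 lower (2.27%, against 4.62%), shares near or below those of all genes. RAC1, the GTPase that drives lamellipodia, had RNA at 4.19 in siIRE1a cells and 7.97 in siCon cells and footprints at 35.1 in siIRE1a cells and 40.7 in siCon cells. Its TE rose by 0.73 in the authors' deposited table (adjusted p = 2.9e-05). TE of PAK2, a kinase activated by RAC1, rose by 0.55 (adjusted p = 0.00633 in the authors' deposited table), and that of the adaptor NCK1 by 0.74 (adjusted p = 0.0128 in the authors' deposited table). TE of the tyrosine kinase gene ABL1 fell by 0.42 on the log2 scale (adjusted p = 0.0425 in the authors' deposited table). The RNA changes of RAC1, PAK2 and NCK1 were −0.93, −0.60 and −0.76, and that of ABL1 was 0.41. With the GC trend removed, RAC1 was at 0.96 and still passed (adjusted p = 4.9e-09, recomputed here from the authors' deposited table). NCK1 (0.46), PAK2 (0.29) and ABL1 (−0.15) then no longer passed, with recomputed adjusted p of 0.403, 0.482 and 0.820 from the authors' deposited table.

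Ligands and their own receptors can be read side by side. For SLIT2 and ROBO1 the footprint change was −0.27 in the ligand and 0.08 in the receptor. SEMA4C and PLXNB2 had footprint changes of 0.07 and 0.42, beside RNA changes of 0.33 and 0.90. SEMA4D and PLXNB1 had footprint changes of 0.13 and 0.32, and SEMA3E and PLXND1 of 0.35 and −0.06. For NTN1 and NEO1 the footprint changes were 0.45 and 0.0046, and for EFNB2 and EPHB4 they were 0.11 and 0.29. No pair was tested for a difference, since each gene has 1 value per group.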

How the data were processed

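The siRNA labels gave the groups, and the tables' column names the assays, since the sample descriptions name only 1 assay per group. The submitters' processing notes name hg19 (GRCh37) and the aligner Bowtie 1.1.2. Counting, normalization and the combination of replicates are not given in the sources used here. The authors deposited footprint and RNA abundances of unstated unit and their ratio as TE, with 1 value per group. The authors' deposited comparison table gives the log2 change of TE with its adjusted p-value, and is named after DESeq2. The deposited run summary gives a count of clusters and a mean quality score per library. Depth behind each abundance is unknown, which leaves no counting interval.

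Of 10522 entries, 9 symbols with 2 entries each were left out, leaving 10504 genes, 8878 of them with an adjusted p. Changes were computed without a pseudocount. The rule for named genes took ERN1, called genes, the 6 highest and lowest changes per assay, the 3 most abundant genes per family and called genes of 2 pathway lists. The members and lists were chosen with earlier results of these data known. Called means a deposited adjusted p under 0.05. Standard errors assume a two-sided normal test and Benjamini-Hochberg adjustment. None was derived from a gene's own p where that back-calculated p was over 0.5. The adjusted p recomputed after removal of the GC trend also takes in such genes. How they entered is not described here, and the recomputed values depend on it. GC content and coding length came from GENCODE release 29 for 10443 genes, and trends were polynomials of degree 3. The trend removal was tested on simulated data. Promoters came from RefSeq (GRCh38.p14). Python 3.11.15, numpy 2.4.6, pandas 2.3.3 and scipy 1.17.1 were used.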

Additional observations from a re-analysis of the deposited data

How the results depend on the processing

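The directions of the set held under most alternatives, and the changes were smaller with a pseudocount of 1 and among more abundant genes. Across 69 recomputed values, 48 stayed the same within a tolerance, 13 moved, 7 turned in sign and 1 no longer passed its test. A median counted as moved when it shifted by more than 0.1 and kept its sign. The median RNA change, 0.27, became 0.035 with a pseudocount of 1, and the median footprint change, 0.22, became 0.052. Where the mean abundance had to reach 1 in the assay, RNA was higher in 2 of 3 genes, and footprints in 8 of 11 with a median of 0.11. With a mean footprint abundance of at least 0.5, chosen after seeing the data, RNA was higher in 16 of 22 genes and footprints in 17 of 22 with a median of 0.12. The difference of ligands minus receptors, −0.01 in RNA and −0.0070 in footprints, became −0.79 and −0.11 with a mean of at least 1. In footprints it turned to 0.0058 and 0.0036 with pseudocounts of 0.1 and 1, and to 0.045 after quantile normalization. The RNA difference of semaphorins minus other guidance genes, 0.04, turned to −0.047 and −0.013 with these pseudocounts and to −0.043 after quantile normalization, and that in footprints to −0.015 with a pseudocount of 1. Genes called higher for TE numbered 0 at an adjusted p under 0.01 in the authors' deposited table and 1 (EPHA3) with a mean footprint abundance of at least 0.5, and genes called lower numbered 1 (PLXNB2) at an adjusted p under 0.1. The TE change of EPHA3 became 0.58 with the GC trend removed and no longer passed. The cause of these shifts was not tested.

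No paired analysis was possible because the tables hold 1 pooled value per group, and for the same reason leaving out a replicate was not run. The read depth behind the values is unknown.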

Other observations

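Cadherins, the calcium-dependent adhesion proteins, are a further family of cell surface genes in the same table. In all 31 were measured, counting protocadherins, FAT, Dachsous and CELSR genes, and their median RNA change was 0.44, with 30 above 0. Their median footprint change was 0.37, with 29 above 0, and 24 were at least 1.2-fold higher in siIRE1a cells (6.32% of all genes were). CDH2 (N-cadherin), which HEK293 cells are known to make, had footprints at 3.96 in siIRE1a cells and 3.06 in siCon cells and RNA at 0.618 in siIRE1a cells and 0.533 in siCon cells. Of these, 29 had an adjusted p in the authors' deposited table, and 0 were called higher (against 5.90% of all genes) and 1 lower (3.45%, against 4.62%) for TE. At a back-calculated, unadjusted p under 0.05 the counts were the same (against 12.7% higher and 13.1% lower over all genes). Protocadherins of the gene clusters share exons, and how their reads were split is not given in the sources used here, so the 31 genes are not separate observations. Their transcripts had a median GC content of 47.5%, close to the 47.95% of all genes and below the 55.1% of the guidance genes.

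In 3′ UTRs, all 7-base words were scanned against footprint change over 10220 genes, ranked by their mean change relative to that of all genes, weighted by the square root of the number of genes with the word. The lowest pair overlap each other. They were picked out of all words on these same changes, with no test, so their low values are a description. The lowest, GGACCTA, was in 473 genes (4.63%) with a mean change of −0.19, and in 0 guidance genes. The median over all genes scanned was −0.08, while their mean, used in the ranking, is not given here. The next, GACCTAA, was in 644 genes (6.30%) with a mean of −0.16. It was in EFNB1, EFNB2 and SEMA6B, whose footprint changes were 0.21, 0.11 and 0.28.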
